A study of Mus musculus with 6 samples.

Results

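The genes described are 10 mouse genes that growth factor signalling through the kinase ERK switches on: the dual-specificity phosphatases Dusp4, Dusp5 and Dusp6, the Sprouty genes Spry1, Spry2 and Spry4, the Sprouty-related genes Spred1 and Spred2, and the ETS-family transcription factors Etv4 and Etv5. They were chosen by name, with earlier results of these data known, from 23462 genes with a symbol on the array. Every probe whose accession maps to one of the symbols was used, which gave 13 probes. They were measured in TM4, a line derived from mouse testis that is used as a model of Sertoli cells, the somatic cells that support germ cells. The PNP group held 3 TM4 samples exposed to 10 µM 4-nitrophenol (PNP), a phenol of diesel exhaust, for 24 h, and the untreated group held 3 TM4 samples of the same 24 h without it. Every sample had a single-colour array of its own, and with 6 arrays their number is what limits precision. Whether a replicate is a culture of its own is not given in the labels, and the p-values therefore reflect the spread among these 6 samples, possibly a technical one.

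The file names place the arrays on 3 slides, each with 1 array of this series at each of 2 positions. The 2 positions are called first and second by their order in the file names, and need not be the first 2 places of a slide. The second position held PNP replicates 1 and 3 and untreated replicate 2, and the first position held PNP replicate 2 and untreated replicates 1 and 3. Slide 1 carried untreated replicates 1 and 2, slide 2 carried PNP replicate 1 and untreated replicate 3, and slide 3 carried PNP replicates 2 and 3. Each RNA sample was placed once, so array position cannot be told apart from any other property that the samples of a position share. The arrays fell apart by position for most of the 10 genes, and for that reason the position of each array is given beside its treatment.

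ERK is the last kinase of a relay that runs from receptor tyrosine kinases through Ras, Raf and MEK. Active ERK induces its own inhibitors: Dusp proteins remove the activating phosphates from ERK, and Sprouty and Spred proteins act upstream at the level of Ras and Raf. Etv4 and Etv5 are induced by the same pathway and are widely read as its transcriptional output, and Etv5 in Sertoli cells is known for its role in maintaining spermatogonial stem cells. The repressor Capicua, which ERK inactivates, binds octamers such as TGAATGAA in target genes.

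The upstream sequences of 7 of the 10 genes, in 8 windows, were found in a RefSeq table of GRCm38.p6. Dusp4, Spry4 and Etv4 were not matched. The 250 bases before the gene start were searched on both strands for the Capicua octamers TGAATGAA, TGAATGGA, TCAATGAA and TCAATGGA. Searched in the same way were the ETS site CCGGAA, the AP-1 site TGANTCA, the cAMP response element TGACGTCA and the CArG box bound by serum response factor. The shorter ETS core GGAA was not searched, and it occurs in the windows printed below. Capicua octamers were found in 2 of the 8 windows, those of Dusp6 and Spry2, and in 3.19% of all 32851 windows of this length. The CArG box was found in 1 of the 8 windows, that of Dusp5, and in 1.47% of all windows. The ETS site CCGGAA, the AP-1 site and the cAMP response element were in 0 of the 8, against 12%, 6.75% and 1.55% of all windows. A match is a description of the letters and shows no binding. The 3 windows with a match are printed 5′ to 3′ on the strand of the gene, with the matches in capitals. Windows without a match are not printed, whatever the difference of their gene between arrays.
Dusp6, chr10:99262981-99263230, plus strand, octamer TCAATGGA on the opposite strand: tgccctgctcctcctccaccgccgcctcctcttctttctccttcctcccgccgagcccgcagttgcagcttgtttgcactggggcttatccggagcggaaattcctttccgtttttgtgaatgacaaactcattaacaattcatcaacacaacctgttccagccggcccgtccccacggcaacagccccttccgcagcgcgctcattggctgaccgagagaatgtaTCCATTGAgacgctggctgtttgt
Spry2, chr14:105896820-105897069, minus strand, octamer TCAATGAA on the opposite strand: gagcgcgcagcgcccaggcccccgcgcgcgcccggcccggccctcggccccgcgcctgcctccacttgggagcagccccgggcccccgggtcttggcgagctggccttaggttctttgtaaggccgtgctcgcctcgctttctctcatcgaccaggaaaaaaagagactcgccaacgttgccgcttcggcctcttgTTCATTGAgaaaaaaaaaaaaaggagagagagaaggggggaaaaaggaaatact
Dusp5, chr19:53528895-53529144, plus strand, 2 adjoining CArG boxes: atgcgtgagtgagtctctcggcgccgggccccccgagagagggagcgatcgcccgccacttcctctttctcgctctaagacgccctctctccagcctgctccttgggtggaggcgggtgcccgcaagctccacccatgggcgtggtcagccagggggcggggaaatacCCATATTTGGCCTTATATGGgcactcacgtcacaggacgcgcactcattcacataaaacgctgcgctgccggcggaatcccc

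Levels are log2 of the background-subtracted array signal minus the 75th percentile of that array, so 0 is the level that 3 in 4 probes do not reach, and levels of different probes are not compared. Of the 10 genes, 9 were well above background on all 6 arrays and were tested. Spry4, an inhibitor of Ras activation, stayed within background on all 6 arrays. Its readings were -6.32, -6.00 and -6.77 in PNP replicates 1 to 3, against -6.69, -6.26 and -4.94 in untreated replicates 1 to 3, and no fold is given. The share of probes well above background was 48% to 57.9%. This share, the 75th percentile itself and the spike-in control spots overlapped between positions. Within each slide, however, the array of the second position had the lower 75th percentile, by -0.0824 to -0.248 on the log2 scale, and the higher relative level of the spike-in spots, by 0.269 to 0.358, and the part of these in the results was not tested.

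No member passed the test for 4-nitrophenol, as for 0% of all genes and unnamed transcripts tested. For array position 5 of the 9 tested members passed, lower at the second position in treated and untreated cells alike. Of all genes and unnamed transcripts, 1.52% passed in that direction. These 5 were Spry2, Etv5, Spry1, Dusp6 and Dusp5, with log2 differences (second minus first position) from -2.22 to -1.37. Spred1, Spred2 and Etv4 were also read lower on every array of the second position, by smaller amounts that did not pass, and Dusp4 overlapped. Such lower readings without overlap were found in 10.9% of all genes and unnamed transcripts. The tests were run with limma over all 21479 genes and unnamed transcripts, with Benjamini-Hochberg adjustment and a threshold of 0.05.

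Dusp6, the cytoplasmic phosphatase that acts on ERK itself, read 2.17, 3.95 and 2.41 in PNP replicates 1 to 3, against 3.90, 2.32 and 3.81 in untreated replicates 1 to 3. The low readings were those of PNP replicates 1 and 3 and untreated replicate 2, the arrays of the second position, and the treatment groups overlapped. By position the mean was 2.30 ± 0.12 at the second and 3.89 ± 0.068 at the first (SD, n = 3 each). With treatment in the model the position difference was -1.60 ± 0.18 (SE; limma, adjusted p = 0.0174), a 3.02-fold higher signal at the first position.

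Dusp5, a nuclear phosphatase that binds ERK, read -2.54, -0.75 and -1.81 in PNP replicates 1 to 3, against -0.48, -1.92 and -0.73 in untreated replicates 1 to 3. Again the arrays of the second position were the low ones in both groups. The mean was -2.09 ± 0.40 at the second position and -0.65 ± 0.15 at the first (SD, n = 3 each), with a position difference of -1.37 ± 0.24 (SE; limma, adjusted p = 0.0382). Dusp4, a nuclear phosphatase that also acts on other MAP kinases, read 1.72, 1.66 and 2.14 with PNP, against 2.12, 2.29 and 1.79 untreated. Its readings overlapped between groups and between positions, and its position difference of 0.30 ± 0.21 had the opposite sign (SE; limma, adjusted p = 0.471).

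Spry2, an inhibitor of receptor tyrosine kinase signalling, read -1.64, -0.03 and -2.39 in PNP replicates 1 to 3, against 0.22, -2.11 and 0.49 in untreated replicates 1 to 3. All low readings were at the second position, with a mean of -2.05 ± 0.38 there and 0.22 ± 0.26 at the first (SD, n = 3 each). The position difference of -2.22 ± 0.26 was the largest of the 9 tested members (SE; limma, adjusted p = 0.0174). A second Spry2 probe was well above background only in untreated replicate 1, where it read -4.21, and was not tested. It read -6.42, -4.69 and -6.88 with PNP and -6.48 and -4.89 in untreated replicates 2 and 3, readings that lay within background. The readings of the second position were again the lower ones, but at background this order carries no weight.

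Spry1, the other Sprouty gene that could be measured, read -1.56, -0.28 and -1.85 with PNP, against 0.35, -1.64 and -0.01 untreated. The treatment groups overlapped and the positions did not. The mean was -1.68 ± 0.15 at the second position and 0.019 ± 0.31 at the first (SD, n = 3 each), and the position difference was -1.62 ± 0.21 (SE; limma, adjusted p = 0.0204).

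Spred1 and Spred2, which bind the Ras regulator neurofibromin, differed less. Spred1 read -0.16, -0.06 and -0.34 with PNP, against 0.21, -0.58 and 0.21 untreated. Its position difference was -0.49 ± 0.21 (SE; limma, adjusted p = 0.236), and a second, dimmer Spred1 probe gave -0.58 ± 0.33 with overlapping positions. Spred2 read -0.87, 0.13 and -0.58 with PNP, against 0.05, -0.55 and 0.05 untreated. The difference between positions was -0.73 ± 0.19 for Spred2 (SE; limma, adjusted p = 0.0877), and its second probe gave -0.49 ± 0.18 without overlap. In neither gene did the position difference pass the threshold, although the readings of the brighter probes did not overlap.

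Etv5 read -0.08, 2.01 and 0.74 in PNP replicates 1 to 3, against 2.20, 0.26 and 2.29 in untreated replicates 1 to 3. The second position averaged 0.31 ± 0.42 and the first 2.17 ± 0.14 (SD, n = 3 each), with a position difference of -1.84 ± 0.26 (SE; limma, adjusted p = 0.0242). Etv4, the closely related factor, read 1.23, 1.57 and 1.31 with PNP, against 2.10, 1.38 and 2.18 untreated. Its lowest readings were also those of the second position, but PNP replicate 2 at the first position lay nearer to them than the untreated arrays did. The Etv4 position difference was -0.53 ± 0.19 and did not pass (SE; limma, adjusted p = 0.176).

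**Figure D1:**
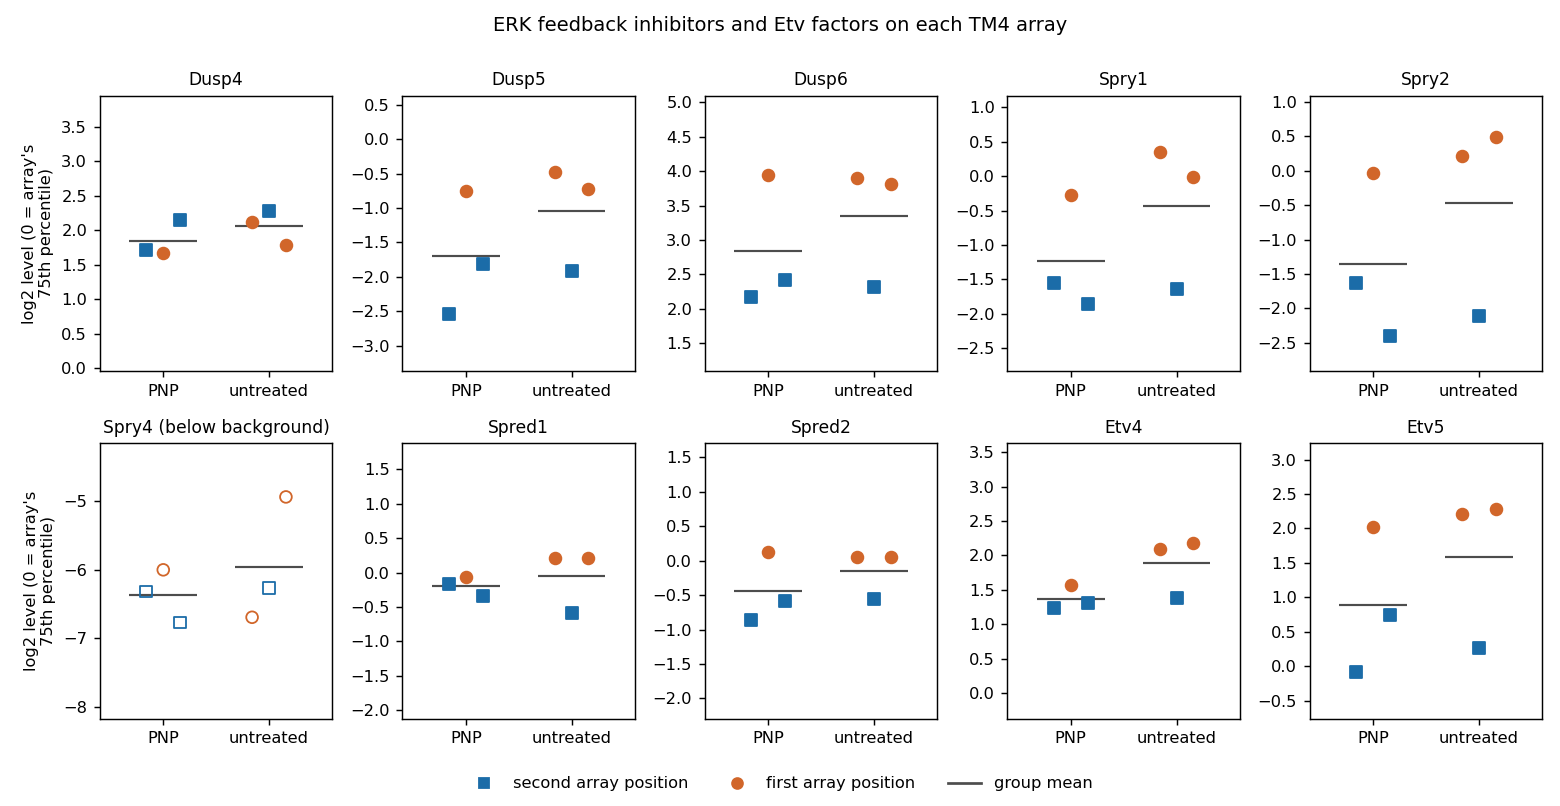
Log2 level (vertical axis, relative to the 75th percentile of each array) of the 10 genes on each array, PNP left and untreated right; squares are arrays of the second position, circles those of the first, lines are group means, open symbols are not well above background, and every panel spans 4 log2 units. In 8 of the 9 genes above background the squares lie below all circles in both groups, while in Dusp4 they overlap. The same order holds in 10.9% of all 21479 genes and unnamed transcripts tested.

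The position difference passed the test in 5 of the 9 members, all lower at the second position, where 1.52% of all 21479 units passed in that direction and 2.64% in either. Readings did not overlap between positions in 8 of the 9, all lower at the second, against 10.9% of all units. An unadjusted p under 0.05 with a lower level at the second position was found in the same number, 8 of the 9 (limma), and in 9.42% of all units. The median position difference was -1.37 over the 9 members and 0.0591 over all units. The members were chosen with earlier results of these data known, so these shares describe the set and do not test it. How many members passed rested on single arrays. It was 5 without PNP replicate 1, in a fit where 4.98% of all units passed. Without PNP replicate 3 it was 2 (Dusp6 and Etv5), and 0.233% of all units passed. It was 0 without PNP replicate 2 or without untreated replicate 1, 2 or 3, and 0 when dim probes were not filtered out; in each of these 5 fits no unit of the whole table passed. Over all 18 alternatives the sizes stayed between -2.46 and -1.66 for Spry2, -2.04 and -1.61 for Etv5, -1.81 and -1.25 for Spry1, -1.79 and -1.54 for Dusp6, and -1.52 and -0.942 for Dusp5.

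The same difference can be read within slides, and slides 1 and 3 carried a single treatment group each. On slide 3, where both arrays were PNP, the second position was lower than the first by -2.36 for Spry2, -1.57 for Spry1, -1.54 for Dusp6, -1.27 for Etv5 and -1.06 for Dusp5. On slide 1, where both were untreated, the differences were -2.33, -1.99, -1.58, -1.95 and -1.44 in the same order. On slide 2 PNP replicate 1 at the second position was set against untreated replicate 3 at the first, and the differences were -2.13, -1.54, -1.64, -2.37 and -1.82. Among these 5, Dusp6 varied least between slides and Etv5 most. With slide as a block, chosen after the data were seen, 6 members passed, Spred2 with -0.654 being the sixth (limma, adjusted p = 0.0443), but 13.1% of all units passed in that fit.

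**Figure D2:**
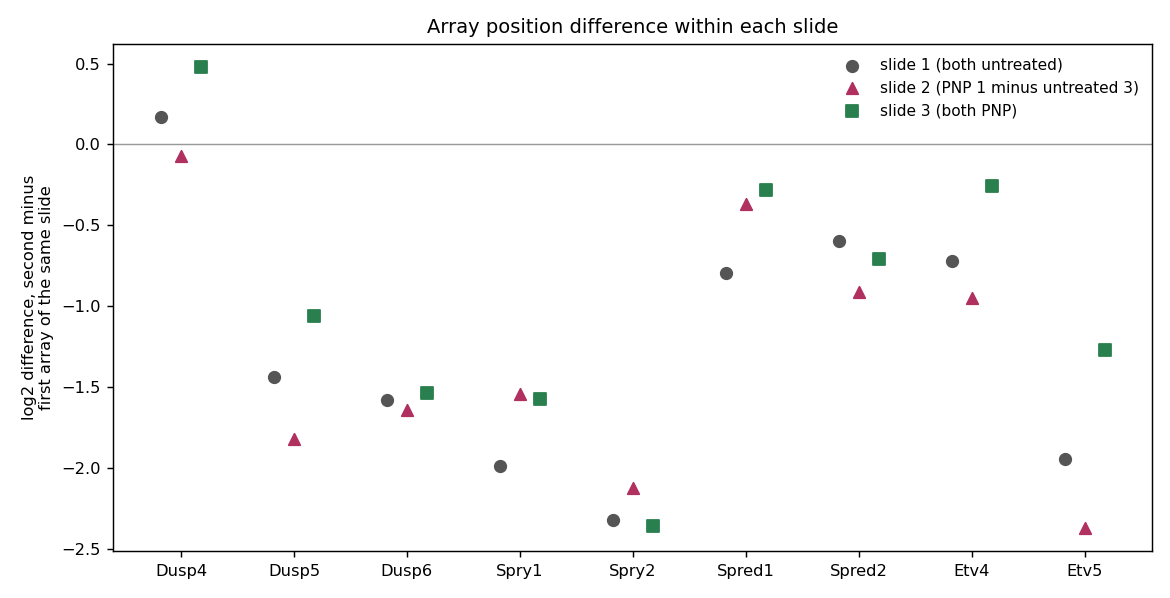
Log2 difference between the array of the second and that of the first position on the same slide (vertical axis) for the 9 members above background; circles are slide 1 with 2 untreated arrays, triangles slide 2 with PNP replicate 1 minus untreated replicate 3, squares slide 3 with 2 PNP arrays. All 3 slides lie below 0 for every gene but Dusp4, between -2.37 and -1.06 for the 5 genes that passed.

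The comparison of treated with untreated cells asked whether 4-nitrophenol changes these ERK targets. Of the 9 members tested, 0 passed (limma; smallest adjusted p = 0.545) and 0 had an unadjusted p under 0.05, where 0% of all units passed and 9.94% had an unadjusted p under 0.05. All 9 had a negative log2 fold change, from -0.888 to -0.136, as had 55.2% of all units. Groups overlapped in each of the 9, while 7.83% of all units were lower with PNP without overlap. The median over the members was -0.514, against -0.0418 over all units. Spry2 had -0.89 ± 0.76, Spry1 -0.79 ± 0.56, Etv5 -0.69 ± 0.64, Dusp5 -0.66 ± 0.50 and Dusp6 -0.50 ± 0.55 (SE, n = 3 per group), each with a standard error close to its size. The PNP group held 2 of the 3 arrays of the second position, and the untreated group held 1. The median over the members was -0.205 without PNP replicate 1, -1.05 without PNP replicate 2 and -1.01 without untreated replicate 2, and 0 members passed in any of these fits.

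When array position entered the model as a block, the 9 members had a median of -0.148, against -0.0645 over all units, and 0 passed (limma; smallest adjusted p = 0.433), as for 0% of all units. An unadjusted p under 0.05 was found in 0 members and in 13.7% of all units. Dusp6 then had a log2 fold change of 0.03, with a 95% interval from -0.39 to 0.45. Etv5 had -0.08 (-0.68 to 0.52), Spry2 -0.15 (-0.76 to 0.47), Dusp5 -0.20 (-0.77 to 0.37) and Spry1 -0.25 (-0.75 to 0.24). The intervals for Spred1 and Spred2 ran from -0.46 to 0.51 and from -0.48 to 0.39. The most negative values were those of Etv4, -0.34 (-0.79 to 0.11), and Dusp4, -0.32 (-0.81 to 0.16), and a p that misses the threshold does not show that either was unchanged. For the brightest probe of every member, changes larger than about 1 on the log2 scale lay outside the interval in this fit. The interval of the second Spred1 probe, -0.44 to 1.11, reached past 1.

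Within the first position alone, PNP replicate 2 differed from the mean of untreated replicates 1 and 3 by -0.57 for Etv4, -0.44 for Spry1, -0.39 for Spry2, -0.29 for Dusp4, -0.23 for Etv5, -0.15 for Dusp5 and 0.09 for Dusp6. Within the second, the mean of PNP replicates 1 and 3 differed from untreated replicate 2 by -0.11, -0.06, 0.09, -0.36, 0.07, -0.26 and -0.03 in the same order. Dusp4 and Etv4 read lower with PNP on every array of both positions, while for Spry1 and Dusp5 1 PNP array of the second position read above untreated replicate 2. With 1 array in an arm at each position, these are values with no weight as tests. A fixed block for slide gave a median of -1.54 over the members. It rests on slide 2, where the PNP array was at the second position and the untreated array at the first, so treatment and position cannot be told apart in it.

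**Figure D3:**
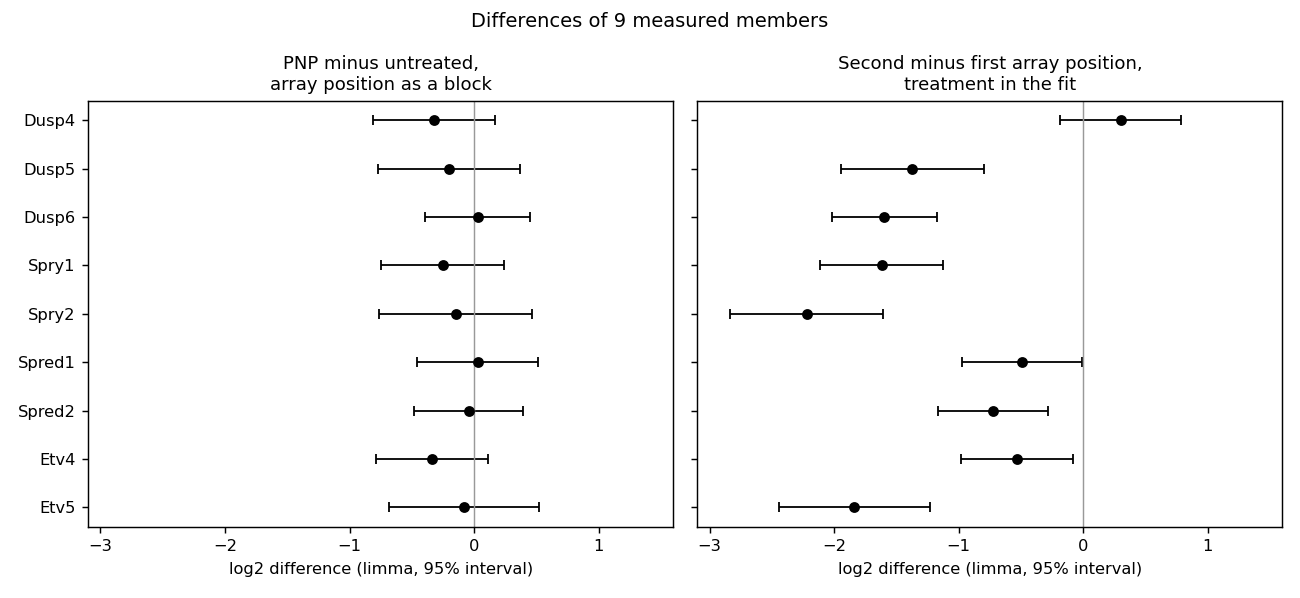
Log2 differences with 95% intervals (horizontal axes, limma) of the 9 members above background: PNP minus untreated with array position as a block on the left, second minus first array position with treatment in the fit on the right. All treatment intervals on the left include 0, and the position differences on the right run from -2.22 for Spry2 to 0.30 for Dusp4.

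The rest of the pathway was followed through 8 lists of 128 genes, of which 113 were measured. For 4-nitrophenol 0 of the 113 passed, and 9 (7.96%) had an unadjusted p under 0.05, near the 9.94% of all units. For array position 10 (8.85%) passed, 7 lower and 3 higher at the second position, where 2.64% of all units passed, 1.52% lower and 1.11% higher. The list nearest in kind to the 10 genes, other transcription factors and targets that ERK induces, held 5 of them, all lower, among 24 measured, and 21 of the 24 had a negative difference, as had 43.7% of all units. They were Egr2 (-2.92 ± 0.32), Fosl1 (-2.50 ± 0.28), Egr1 (-2.16 ± 0.20), Fosl2 (-1.21 ± 0.18) and Phlda1 (-0.97 ± 0.18; SE; limma, adjusted p from 0.0159 to 0.0402). The mean of Egr2 at the second position was -4.06, below the median of all probes on every array, so its difference rests on dim readings there. Egr1 and Egr2 are zinc finger immediate early factors, and Fosl1 and Fosl2 are AP-1 subunits. Phlda1 is a pleckstrin homology protein often used as a marker of ERK output. The median of this list was -0.427. Like the members, the lists were chosen with earlier results of these data known, so their shares are a description and not a test.

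Among growth factor ligands 1 of 17 passed, Hbegf, a ligand of the EGF receptor, at -1.19 ± 0.20 (SE; limma, adjusted p = 0.0326). Of the receptor tyrosine kinases 3 of 13 passed, and all 3 were higher at the second position: the insulin receptor Insr (1.55 ± 0.21), the FGF receptor Fgfr2 (1.45 ± 0.18) and the ephrin receptor Epha4 (1.14 ± 0.18; SE; limma, adjusted p from 0.0178 to 0.0323). Among adaptors and Ras regulators 1 of 16 passed, Sos1, an activator of Ras, at -1.42 ± 0.28 (SE; limma, adjusted p = 0.0477). The core of the relay did not pass in any of 19 Ras, Raf, MEK and ERK kinases and scaffolds, with Ksr1, a MEK scaffold, at 0.88 ± 0.24 and Mapk3, which is ERK1, at 0.59 ± 0.19. None passed of 7 kinases downstream of ERK, led by Rps6ka3 at 0.29 and Mknk2 at 0.33.

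Of other phosphatases and negative regulators of the pathway 0 of 14 passed, 9 of the 14 had a negative difference, and the median was -0.0725. Whether they differ from the 10 genes was not tested. Dusp10, which acts on p38 and JNK, was at 1.13 ± 0.24 (SE; limma, adjusted p = 0.0549), and Errfi1, an inhibitor of the EGF receptor, at -1.26 ± 0.37 (adjusted p = 0.113). In the Capicua complex none of 3 passed, with Cic itself at 0.55 ± 0.23 and its partner Atxn1l at -0.62 ± 0.17. For 4-nitrophenol the smallest p-values in these lists were those of Hgf and Erbb2. Hgf, the ligand of the Met receptor, had a log2 fold change of 0.95 ± 0.19 (SE; limma, adjusted p = 0.26). Its untreated mean was -3.88, near the median of all probes on the untreated arrays, -3.97 to -3.81. The Hgf difference therefore rests on dim readings there. Erbb2, a receptor of the EGF family, had a log2 fold change of -0.77 ± 0.27 (SE; limma, adjusted p = 0.395). Pdgfa had 0.41, Erbb3 -0.51, Shc1 -0.37, Gab2 0.52, Mras 0.63, Map2k2 -0.33, Rps6ka2 -0.44 and Rps6ka4 -0.38. Lrig1 had -0.50, Dusp9 -0.53, Atxn1l -0.09, Cic -0.04, Fosb -0.58 and Junb -0.54. Of these, Erbb3 was dim as well, with a mean of -4.04 in the PNP group.

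**Figure D4:**
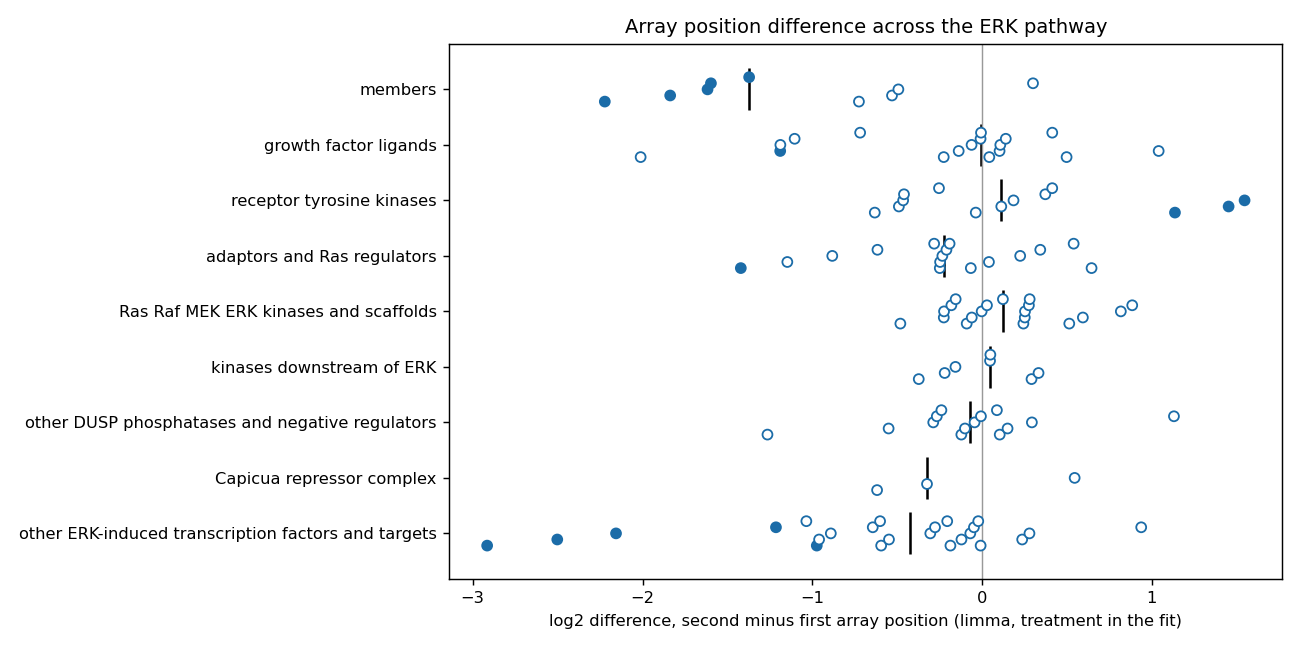
Log2 difference between the second and the first array position (horizontal axis; limma with treatment in the fit) of the 9 members above background and of the measured genes of 8 lists of the ERK pathway; each point is a gene, filled where the adjusted p is under 0.05, and black bars are list medians. The members and the other ERK-induced genes have the most negative medians, -1.37 and -0.427, and the 3 filled points above 0 are receptor tyrosine kinases.

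The genes whose readings followed Dusp6 most closely over the 6 arrays, among 13529 other named genes, were Tacc1 (Pearson r = 0.9987), Frmd4b (0.9983) and Trmt12 (0.9975). Because the Dusp6 readings form 2 clusters by position, r describes mainly that division and was not tested. Frmd4b and Trmt12 had position differences of -1.71 and -1.96 (limma, adjusted p = 0.0174 and 0.0159), and Tacc1 had -0.69 (adjusted p = 0.081).

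Of 18 Sertoli cell markers 14 were well above background on all arrays, Sox9, Wt1 and Gata4 among them, while Amh, Fshr, Cldn11 and Aard were not on any. None of the 7 Leydig cell markers on the array and none of 5 endothelial markers was well above background on all arrays, and 1 of 8 germ cell markers was. All 5 markers of peritubular myoid cells were, and 3 of 5 macrophage markers, without Adgre1. One of these 3, Cd68, was higher at the second position, by 1.16 ± 0.20 (SE; limma, adjusted p = 0.0365), while the summed macrophage markers were 9.41 to 13.8 at the second and 8.3 to 11.3 at the first. The summed linear signal of the Sertoli markers, in units of each array's 75th percentile, was 18 to 23.1 with PNP and 20.8 to 25.4 untreated. By position it was 18 to 21.6 at the second and 20.8 to 25.4 at the first, and that of the myoid markers was 85 to 123 at the second and 79.2 to 126 at the first. The 2 germ cell markers that were measured summed to 0.289 to 0.361 at the second position and 0.162 to 0.239 at the first, without overlap, and the part of these markers in the results was not tested. Each array measured bulk RNA, so fewer cells that carry a transcript and less of it per cell cannot be told apart.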

How the data were processed

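Per the labels' protocols, TRIzol RNA of 6 TM4 samples was linearly amplified into Cy3-labelled cDNA. The deposited intensity values are spot signals of Agilent Feature Extraction (11.5.1.1 per the file headers, 10.7 per the submitters' processing notes): a background-subtracted signal not normalized between arrays, and median spot and background signals. The authors' deposited log2 table, whose columns each have a median of 4.745 and follow the arrays' own signals (r of 0.998 or more), served as an alternative. Its normalization is not given in the sources used here, but it gave nearly the values of quantile normalization (members' treatment median -0.456 in both), so these alternatives are not independent.

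Repeat spots were averaged after dropping outliers, and log2 signals were set relative to the 75th percentile of their array. Probes were kept if well above background on all 3 arrays of a group (28208 of 56605 probes). No spot was saturated. Accessions were matched to a RefSeq table of GRCm38.p6, which named 33767 probes (the headers name another build, so gene coordinates come only with the promoter table). The brightest probe stood for a gene, and other probes were adjusted over all probes that entered. Groups, and array positions with treatment in the model, were tested two-sided by lmFit and eBayes of limma 3.58.1 (R 4.3.3), with Benjamini-Hochberg adjustment across 21479 units, a procedure tested on simulated data. The text names all 10 genes, list genes past the threshold or otherwise the 2 with the smallest p in each contrast, and the 3 genes most like Dusp6. Members and lists were chosen with earlier results of these data known. Alternatives covered background correction, normalization, filter, probe choice, spread, slide, position, replicate number and leaving out each array.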

Additional observations from a re-analysis of the deposited data

Results flagged for a closer look

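Spred1 and Spred2 had treatment differences of opposite sign at the 2 array positions, with every pair of PNP and untreated arrays of a position on the same side. For Spred1 the difference was -0.275 at the first position and 0.331 at the second. For Spred2 it was 0.0844 at the first position and -0.172 at the second. The difference between positions was not tested in either gene, each position holds 3 arrays, and for the second Spred1 probe the values were 0.12 and 0.55, both positive. The second Spred2 probe had -0.29 at the first position and -0.37 at the second, both negative, so the opposite signs appeared in 1 of the 2 probes of each gene.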

How the results depend on the processing

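The count of members past the threshold for 4-nitrophenol was 0 in all 23 alternatives, the replicate block included, and 0 to 0 when each array was left out. Over all 21479 units, of which 0 passed in the reported test, array weights called 1365 (with a weight of 9.11 for untreated replicate 1 and 0.466 to 0.798 for the others), the fit within position 1 called 538, that within position 2 called 78, and normexp with a position block called 93. Deviations of arrays with the same replicate number correlated at -0.409, -0.553 and -0.406. Arrays of the same number always lay at opposite positions, while PNP and untreated arrays of the same position gave 0.135 to 0.501. These correlations therefore cannot show whether the numbers pair samples, and no pairing was assumed. Centring arrays on the median moved the treatment median of all units to -0.146 and that of the members to -0.618; array weights gave the members -0.987, and leaving out 1 array gave -1.05 to -0.205. The sign turned, with no call, for Dusp6 with a position block (0.0305), within position 1 (0.0907) and with normexp and that block (0.266); for Spred1 with the median of its probes (0.00363), a position block (0.0282) and within position 2 (0.331); for Spred2 within position 1 (0.0844); for Spry2 within position 2 (0.0925); and for Etv5 within position 2 (0.0711) and with normexp and the position block (0.0403). The count for array position, 5, was 0 without a filter, where all 45217 units entered, and 8 with array weights, a fit that called 23.3% of all units, with a weight of 5.15 for untreated replicate 1 and 0.275 to 1.76 for the others; leaving out 1 array gave 0 to 5, with fewer samples. It was 5 under the other 4 scalings, the authors' values, the stricter filter, probe medians and the robust trend. The share of all units that passed in these fits ran from 2.86% to 6.48%, against 2.64% in the reported fit. Array weights and slide as a block for position, and position alone, were added after the data were seen. Spry4 and the second Spry2 probe were not tested because they lay at background, the Spry2 probe on all arrays but untreated replicate 1. The brighter Spry2 probe was well above background on all arrays. For Spry4, a weak probe and a missing transcript cannot be told apart.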
